A study of Mus musculus with 9 samples.

Results

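The mitochondrial genome of the mouse holds 37 genes, of which 13 encode proteins, and 10 of these 13 are described here: mt-Nd1, mt-Nd2, mt-Nd4, mt-Nd5, mt-Nd6, mt-Cytb, mt-Co1, mt-Co2, mt-Co3 and mt-Atp6. They were chosen as a list of symbols, with earlier results of these data known, and each symbol matched 1 of the 54838 Ensembl gene identifiers in the RNA-seq tables. All 10 passed the filter on low values (at least 1 FPKM in at least 2 libraries) and were therefore tested. FPKM is the number of fragments scaled to the length of the gene and to the mapped fragments of the library, so that levels can be compared between genes.

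The mitochondrial genome is transcribed by a polymerase of its own into long RNAs that run along each of its strands. The tRNAs that lie between the protein genes are cut out, which releases the mRNAs, and the level of each mRNA then depends also on its stability. The proteins are core subunits of the respiratory chain and of the ATP synthase and are assembled with subunits from nuclear genes. Oxidative phosphorylation is active in absorptive enterocytes and also in the stem cells of the small intestinal crypt.

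The libraries were made from small intestinal organoids, grown from crypts taken from mice labelled C57BL/6 with the alleles Vil-CreERT2 and Mettl3 fl/fl. In these mice, a tamoxifen-activated Cre is driven by the villin promoter in the intestinal epithelium, and Mettl3, the catalytic subunit of the main m6A methyltransferase of mRNA, carries loxP sites. All organoids carried both alleles, and by the methods they received EtOH (the vehicle) or 0.5 µM 4-hydroxytamoxifen (4-OHT, which activates the Cre) for 2 days, with DMSO or the RIPK1 inhibitor necrostatin-1 (Nec-1) for 5 days. The dose of Nec-1 is given as 5 µM in one place and 10 µM in another. There are 2 libraries each of EtOH DMSO, 4-OHT DMSO and EtOH Nec-1, and 1 of 4-OHT Nec-1. No group received 4-OHT without the Cre, so an effect of 4-OHT or of active Cre cannot be told apart from one of the Mettl3 alleles. The methods state in general that experiments were repeated with biological replicates, and the minimum given there exceeds the libraries of any group here. The labels do not say whether the libraries of a group came from separate cultures or mice, so p-values measure only the spread between these libraries.

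FPKM summed to 450207 to 498712 per library, with 11559 to 12038 genes at 1 FPKM or more. Read counts were not given, so the depth behind a value is unknown. Mettl3, the targeted gene, was at 2.70 and 2.71 FPKM in the EtOH DMSO libraries and at 3.72 and 4.14 FPKM in those labelled 4-OHT DMSO, which goes against the label (log2 fold change 0.41, SE 0.10, limma, Benjamini-Hochberg adjusted p = 0.0231). The 4-OHT Nec-1 library had 3.36 FPKM. A value for the whole gene does not separate the exons that Cre removes from the rest, so every direction below between EtOH and 4-OHT rests on the labels. Epithelial markers were present (2330 to 3410 FPKM summed over Epcam, Cdh1, Vil1, Krt8, Krt18 and Krt20), whereas 6 fibroblast and 3 endothelial markers summed to at most 0.14 FPKM in any library. In bulk samples, fewer cells of a type and less RNA per cell cannot be told apart.

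In the RefSeq annotation of GRCm38.p6, the assembly that mm10 stands for, the 10 genes lie on the mitochondrial chromosome (MT) without introns. In genome order, mt-Nd1 (ENSMUSG00000064341) spans positions 2751 to 3707 and mt-Nd2 (ENSMUSG00000064345) 3914 to 4951. They are followed by mt-Co1 (ENSMUSG00000064351, 5328 to 6872) and mt-Co2 (ENSMUSG00000064354, 7013 to 7696). Then come mt-Atp6 (ENSMUSG00000064357, 7927 to 8607), mt-Co3 (ENSMUSG00000064358, 8607 to 9390) and mt-Nd4 (ENSMUSG00000064363, 10167 to 11544). The last are mt-Nd5 (ENSMUSG00000064367, 11742 to 13565), mt-Nd6 (ENSMUSG00000064368, 13552 to 14070) and mt-Cytb (ENSMUSG00000064370, 14145 to 15288). mt-Nd6 is the only protein gene encoded on the light strand. Whether strand was used in the counting is not given in the sources used here, so its reads cannot be separated from antisense RNA of the heavy-strand transcripts. Some neighbours overlap: mt-Nd5 and mt-Nd6 share 14 bases, mt-Atp6 shares 43 bases with mt-Atp8 and 1 base with mt-Co3, and mt-Nd4 shares 7 bases with mt-Nd4l.

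mt-Co1, the catalytic subunit of cytochrome c oxidase (complex IV), had the highest level of the 10 in each of the 7 libraries and ranked 1 to 3 among all genes of a library. In EtOH DMSO, the order of the mean FPKM was mt-Co1, mt-Co2, mt-Nd1, mt-Co3, mt-Cytb, mt-Nd6, mt-Nd4, mt-Nd2, mt-Nd5 and mt-Atp6. The mean of mt-Co1 was 24048 ± 1915 FPKM (SD, n = 2) and that of mt-Atp6 was 805 ± 24.3 FPKM (SD, n = 2). In this order the libraries of mt-Nd1 and mt-Co3 overlapped, as did those of mt-Nd4 and mt-Nd2 and those of mt-Nd2 and mt-Nd5, while the other neighbours did not overlap. In 4-OHT DMSO, mt-Nd6 followed mt-Nd2, with overlapping libraries, and mt-Nd4 and mt-Nd5 came next. mt-Atp6 ranked 52 to 78 among all genes and the other 9 genes between 1 and 41.

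**Figure D1:**
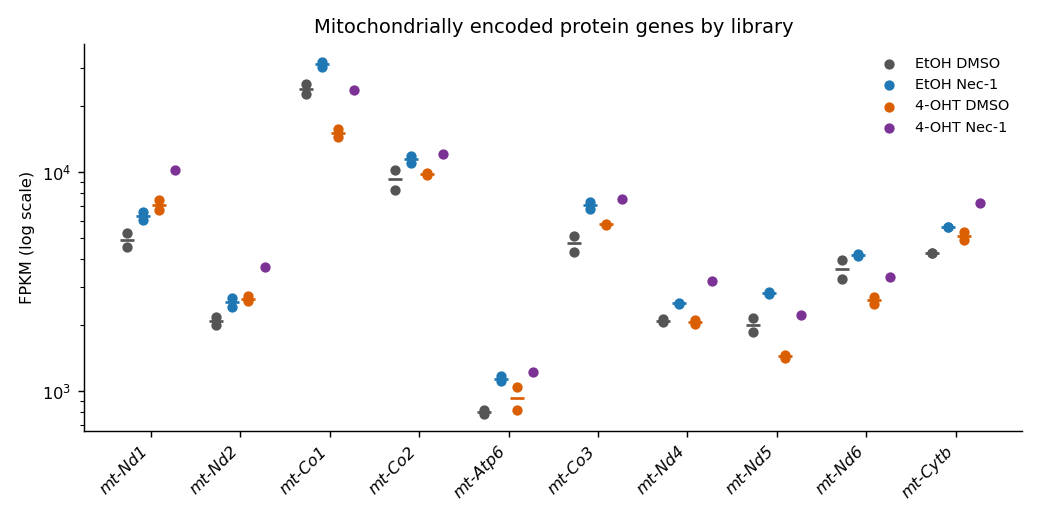
FPKM (log axis) of the 10 mitochondrially encoded protein genes in each of the 7 libraries, coloured by group, with the mean of groups of 2 libraries as a dash. The 2 EtOH Nec-1 libraries lie above the 2 EtOH DMSO libraries for every gene, and mt-Co1, mt-Nd5 and mt-Nd6 are lowest in the 4-OHT DMSO libraries.

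The level of mt-Atp6 needs care. Gm10925, a pseudogene that RefSeq places on chromosome 1 (24613971 to 24614651) with mt-Atp6 among its synonyms and the same length of 681 bases, was listed at 4972 to 8421 FPKM. mt-Atp6 took only 11.9% to 15.3% of the summed FPKM of the pair. A near-identical nuclear copy can share reads with the mitochondrial gene, and the split between them depends on the counting, so the order of mt-Atp6 among the 10 genes is uncertain. The EtOH libraries held 5794 and 5843 FPKM of the pair with DMSO and 8413 and 7916 FPKM with Nec-1. The 4-OHT libraries held 6836 and 6816 FPKM with DMSO and 9635 FPKM with Nec-1. These sums lie nearer to mt-Co3, the neighbour of mt-Atp6, than the listed value of mt-Atp6 does.

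Other nuclear copies carried similar levels to mitochondrial genes. Gm28437 was at 0.980 to 0.998 times the FPKM of mt-Co3, and Gm28661 at 0.931 to 1.01 times that of mt-Co2, in the 7 libraries. Gm29216 was listed at 9764 to 13111 FPKM in the 4 EtOH libraries and at 6011, 9096 and 9020 FPKM in the 3 labelled 4-OHT. Together, 7 such copies took 6.56% to 8.71% of the FPKM sum. Gm29216 had a log2 fold change of -0.59 in 4-OHT DMSO against EtOH DMSO (SE 0.25, limma, adjusted p = 0.107), and Gm28439 one of 0.07 (SE 0.11, adjusted p = 0.634). Of the 7 copies, only Gm28438 was called (higher, 0.92, SE 0.13, limma, adjusted p = 0.00463). It was at 0.752 to 0.951 times the FPKM of mt-Nd3 in the 7 libraries, and a split of reads with mt-Nd3 was not tested. How reads were divided between genes and copies cannot be read from these values. Which mitochondrial gene Gm29216, Gm28438 and Gm28439 resemble in sequence was not examined. The levels of mt-Co2, mt-Co3 and mt-Atp6 are therefore uncertain, and a split of the same kind was not tested for the other genes, mt-Co1 and mt-Nd4 included.

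The 10 genes took 12.8% and 12.1% of the FPKM sum in the EtOH DMSO libraries. With Nec-1, the EtOH libraries gave 15.4% and 14.9%. Each 4-OHT DMSO library gave 10.8%, and the 4-OHT Nec-1 library gave 15.0%. No EtOH Nec-1 library overlapped with EtOH DMSO, and the 4-OHT DMSO libraries had the lowest shares of the 7. The mean was 12.5% ± 0.523 in EtOH DMSO, and the other groups of 2 libraries had 10.8% ± 0.0530 (4-OHT DMSO) and 15.1% ± 0.365 (EtOH Nec-1; SD, n = 2 each). In summed FPKM, EtOH Nec-1 was at 1.29 times EtOH DMSO, 4-OHT DMSO at 0.909 times EtOH DMSO, and 4-OHT Nec-1 at 1.42 times 4-OHT DMSO. The 4-OHT Nec-1 library thus held 0.996 times the summed FPKM of EtOH Nec-1. All 37 mitochondrial genes took 14.5% to 16.4% in the 4 DMSO libraries and 19.0% to 19.9% in the 3 Nec-1 libraries. Another abundant pair that moves between libraries, AY036118 and Gm23935, took 3.54% to 4.82% of the sum in the EtOH libraries and 4.94% to 7.43% in the 4-OHT libraries. Its part in the shares was measured: without these genes in the sum, the difference in share between 4-OHT DMSO and EtOH DMSO was -1.51 percentage points (-1.68 with them). With the other 3 protein genes counted in, which took 1.31% of the sum in EtOH DMSO and 1.99% in 4-OHT DMSO, the difference was -1.002 percentage points.

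**Figure D2:**
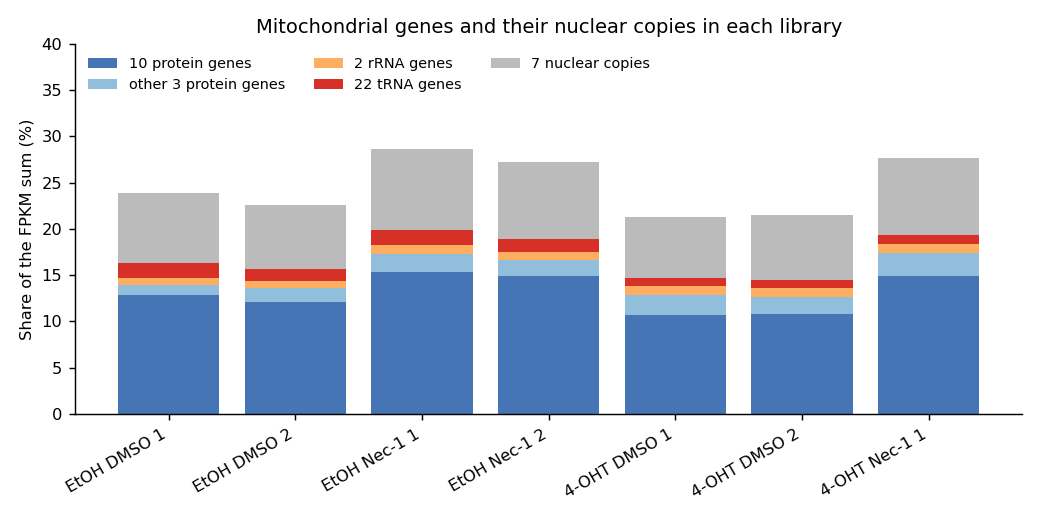
Share of the FPKM sum (%) of each library, stacked by class: the 10 protein genes, the other 3 protein genes, 2 rRNA genes and 22 tRNA genes of the mitochondrial genome, and 7 nuclear copies. The lowest segment, the 10 protein genes, stands between 14.9% and 15.4% in the 3 Nec-1 libraries and between 10.8% and 12.8% in the 4 DMSO libraries.

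The comparison of 4-OHT DMSO with EtOH DMSO asks which transcripts differ after the Cre is induced in these organoids. The 10 genes did not move one way: 1 was called higher (mt-Nd1), 3 were called lower (mt-Co1, mt-Nd5 and mt-Nd6) and 6 did not pass the threshold. Of all 12702 genes tested, 24.5% were called higher and 16.7% lower, so a call as such was common (41.2% in either direction). The median log2 fold change was 0.14 for the 10 genes and 0.08 for all genes. With each library centred on its median gene, the median of all genes moved from 0.08 to -0.08 and that of the 10 genes from 0.14 to -0.01, so that small differences have no fixed sign.

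Complex I (NADH dehydrogenase), which passes electrons from NADH to ubiquinone, gave calls in both directions. mt-Nd1, a membrane subunit of complex I, was at 5243 and 4550 FPKM in EtOH DMSO and at 7466 and 6702 FPKM in 4-OHT DMSO. Both 4-OHT libraries were above both EtOH libraries, and mt-Nd1 was called 1.45-fold higher (log2 fold change 0.53, SE 0.14, limma, Benjamini-Hochberg adjusted p = 0.0294). This call depended on the scaling, since the log2 fold change fell to 0.38 (adjusted p = 0.129) with median centring and 0.37 (adjusted p = 0.115) with upper quartile scaling. mt-Nd2, a further membrane subunit, was at 2167 and 1999 FPKM in EtOH DMSO and at 2702 and 2569 FPKM in 4-OHT DMSO. Its libraries did not overlap either, but the difference did not pass the threshold (log2 fold change 0.34, SE 0.11, limma, adjusted p = 0.0573).

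The complex I genes farther along the genome differed from these. mt-Nd4 was at 2062 and 2131 FPKM in EtOH DMSO and at 2023 and 2099 FPKM in 4-OHT DMSO, with overlapping libraries (log2 fold change -0.02, 95% confidence interval -0.26 to 0.21). mt-Nd5 was at 1859 and 2147 FPKM in EtOH DMSO and at 1421 and 1467 FPKM in 4-OHT DMSO. It was called lower (log2 fold change -0.47, SE 0.11, limma, Benjamini-Hochberg adjusted p = 0.0222). mt-Nd6 was at 3985 and 3244 FPKM in EtOH DMSO and at 2495 and 2698 FPKM in 4-OHT DMSO, and was called lower by a similar amount (log2 fold change -0.47, SE 0.14, limma, adjusted p = 0.0414). For mt-Nd5 and mt-Nd6, both 4-OHT libraries were below both EtOH libraries.

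Complex III and complex IV follow complex I in the chain. mt-Cytb, the cytochrome b of complex III, was at 4291 and 4253 FPKM in EtOH DMSO and at 5340 and 4878 FPKM in 4-OHT DMSO, without overlap and without a call (log2 fold change 0.26, SE 0.11, limma, adjusted p = 0.120). mt-Co1 was at 25402 and 22694 FPKM in EtOH DMSO and at 14490 and 15702 FPKM in 4-OHT DMSO. It showed the largest difference of the 10 genes and was called lower, at 0.628 times the EtOH level (log2 fold change -0.67, SE 0.15, limma, Benjamini-Hochberg adjusted p = 0.0182). mt-Co2, which carries the copper centre that accepts electrons from cytochrome c, was at 10216 and 8323 FPKM in EtOH DMSO and at 9918 and 9703 FPKM in 4-OHT DMSO. The libraries of mt-Co2 overlapped, and its log2 fold change of 0.09 (95% confidence interval -0.29 to 0.47) turned to -0.07 with median centring, -0.08 with upper quartile scaling and -0.01 with mitochondrial genes left out of the scaling. mt-Co3, a further core subunit, was at 5130 and 4336 FPKM in EtOH DMSO and at 5730 and 5809 FPKM in 4-OHT DMSO, with no call (log2 fold change 0.29, SE 0.13, limma, adjusted p = 0.137).

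mt-Atp6, the membrane subunit of the ATP synthase that forms part of its proton path, was at 822 and 787 FPKM in EtOH DMSO and at 815 and 1045 FPKM in 4-OHT DMSO. The libraries overlapped (log2 fold change 0.20, SE 0.14, limma, adjusted p = 0.297). Across the 10 genes, the groups did not overlap for 7, with 4 higher and 3 lower in 4-OHT DMSO. Among all genes tested, 40.7% were higher and 30.8% lower in both 4-OHT DMSO libraries. With median centring, the 10 genes gave 2 higher and 4 lower, beside 30.9% higher and 41.6% lower over all genes. Upper quartile scaling gave the same 2 and 4, beside 31.7% and 39.6% over all genes.

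The 4 calls rest on the estimate of the spread that all groups share. In a fit of only the 4 libraries compared, or without either EtOH Nec-1 library, the fold changes were the same and 0 of the 10 genes passed (adjusted p = 0.0830 for mt-Co1 and 0.0738 for mt-Nd5 with the 4 libraries alone, limma). The fit of only the 4 libraries gave 3 of the 10 genes with an unadjusted p under 0.05, against 5 with all libraries (limma). With all libraries, 6480 of all 12702 genes tested had such a p. Without the filter on low values, 0 of the 10 genes passed as well (1 with an unadjusted p under 0.05). The counts over all genes in these smaller or unfiltered fits are not given here, so the loss of calls cannot be read as particular to the 10 genes. mt-Co1 and mt-Nd5 stayed called when any 1 EtOH DMSO or 4-OHT DMSO library was left out. mt-Nd1 lost its call without EtOH DMSO replicate 2 (limma, adjusted p = 0.0762) or 4-OHT DMSO replicate 1 (0.0697). mt-Nd6 lost it without EtOH DMSO replicate 1 (limma, adjusted p = 0.0891), 4-OHT DMSO replicate 1 (0.0981) or 4-OHT DMSO replicate 2 (0.0546). mt-Co1, mt-Nd5 and mt-Nd6 were called lower under each of the 4 other scalings tried.

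Ratios within a library do not depend on how libraries are scaled, and several separated the EtOH from the 4-OHT libraries. The ratio of mt-Nd1 to mt-Co1 in FPKM was 0.206 and 0.200 in EtOH organoids with DMSO and 0.206 and 0.199 with Nec-1. In the libraries labelled 4-OHT, it was 0.515 and 0.427 with DMSO and 0.432 with Nec-1. The 4 EtOH libraries thus lay within 0.199 to 0.206 whatever the inhibitor, and each of the 3 libraries labelled 4-OHT was at 0.427 or above. The ratio of mt-Nd5 to mt-Nd4, which are neighbours on the heavy strand, was 0.902 and 1.01 (DMSO) and 1.10 and 1.13 (Nec-1) in EtOH organoids, against 0.702 and 0.699 (DMSO) and 0.693 (Nec-1) with 4-OHT. The ratio of mt-Nd6 to mt-Cytb ran from 0.735 to 0.929 in the 4 EtOH libraries and was 0.467, 0.553 and 0.458 in the 3 labelled 4-OHT. In these 3 ratios, no 4-OHT library overlapped with an EtOH library. Each ratio holds at least 1 gene called above in the same libraries, so with DMSO it restates those differences and is no further test. The share of all gene pairs that would separate in this way is not given here.

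The make-up of the summed FPKM of the 10 genes shows the same. mt-Co1 made up 41.5% to 41.8% of it in the 4 EtOH libraries. Its part was 27.7% and 29.8% in the 4-OHT DMSO libraries and 31.8% in the 4-OHT Nec-1 library. mt-Nd1 made up 8.46% on average with DMSO and 8.43% with Nec-1 in EtOH organoids, and 13.5% and 13.7% in those labelled 4-OHT. Of the 10 genes, mt-Co1, mt-Nd5, mt-Nd6 and mt-Nd4 had a lower mean FPKM in 4-OHT DMSO than in EtOH DMSO, and mt-Nd4 differed least (2061 against 2096 FPKM).

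**Figure D3:**
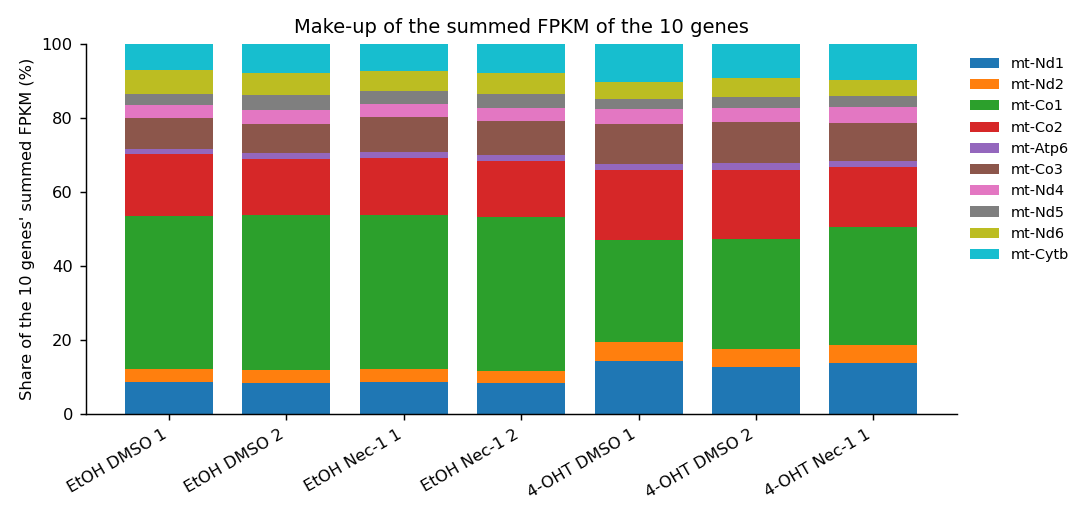
Share of the summed FPKM of the 10 genes (%) that each gene took in each library. The green segment, mt-Co1, spans 41.5% to 41.8% in the 4 EtOH libraries and 27.7% to 31.8% in the 3 4-OHT libraries, and the lowest segment, mt-Nd1, is wider in the 4-OHT libraries.

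The remaining genes of the mitochondrial genome show how the pattern continues between the 10. Of the other 3 protein genes, mt-Atp8 (log2 fold change 0.79, SE 0.24, limma, adjusted p = 0.0450) and mt-Nd3 (0.69, SE 0.18, adjusted p = 0.0278) were called higher in 4-OHT DMSO, and mt-Nd4l was not called (0.38, adjusted p = 0.194). Of the rRNA genes, mt-Rnr1 was called higher (0.47, SE 0.13, adjusted p = 0.0348) and mt-Rnr2 was not called (-0.03, adjusted p = 0.860). Of the 22 tRNA genes, 1 was called higher and 7 lower, beside 24.5% higher and 16.7% lower over all genes tested. Among the 7 are the 5 neighbours that lie between mt-Nd2 and mt-Co1, namely mt-Tw, mt-Ta, mt-Tn, mt-Tc and mt-Ty, with log2 fold changes of -1.40, -1.20, -1.12, -1.10 and -0.93. mt-Ti (-1.26) and mt-Td (-0.63) are the other two, and mt-Tf, the first gene in the numbering of the genome, was the one called higher (1.87, from 3.51 and 3.80 FPKM to 15.0 and 17.2 FPKM). The tRNA genes took 1.62% and 1.32% of the FPKM sum in EtOH DMSO and 0.891% and 0.904% in 4-OHT DMSO. Genes this short are shorter than most sequenced fragments, and FPKM is least certain for them: mt-Ts2 was listed at 0.323 and 232 FPKM in the 2 EtOH DMSO libraries. As for mt-Nd6, the strand setting of the counting is not known, so reads of tRNA genes cannot be separated from RNA of the opposite strand.

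**Figure D4:**
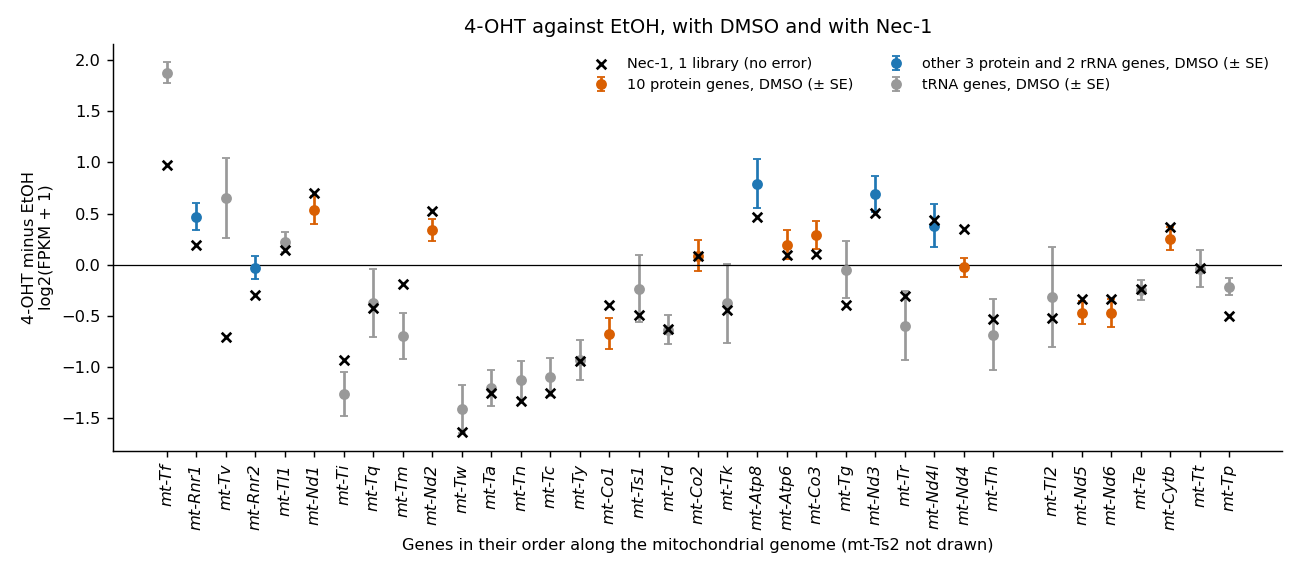
Difference between 4-OHT and EtOH organoids (log2(FPKM + 1)) for the genes of the mitochondrial genome in their order along it, with DMSO (points, limma estimate ± SE) and with Nec-1 (crosses, 1 library minus the mean of 2, no error). From left to right, mt-Nd1 and mt-Nd2 are above 0, the tRNA genes after them and mt-Co1 below, the protein genes from mt-Co2 to mt-Nd4 near or above 0, mt-Nd5 and mt-Nd6 below, and mt-Cytb above; mt-Ts2, whose replicates differ most, is left out.

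EtOH Nec-1 against EtOH DMSO asks what the inhibitor does in organoids without induced Cre. For all 10 genes, both Nec-1 libraries were above both DMSO libraries. Of all genes tested, 10.5% were higher in this way and 39.1% lower. The 10 genes come from the same long transcripts and the same libraries, so they are not 10 independent observations. None of the 10 was called by limma (0, with adjusted p from 0.221 to 0.544), and 8 had an unadjusted p under 0.05, as did 13.3% of all genes in either direction and 2.92% with a higher level. Without either EtOH Nec-1 library, 1 of the 10 had such a p, and without EtOH DMSO replicate 2, 4 did. limma called 0.22% of all genes in this comparison (0.173% higher, 0.0472% lower). The median log2 fold change was 0.37 over the 10 genes and -0.09 over all genes. All 10 stayed apart and higher with median centring, upper quartile scaling and both scalings that leave out mitochondrial genes. The share of all genes higher in this way moved with the scaling. It was 22.4% with median centring, 20.8% with upper quartile scaling, and 8.67% and 10.3% with the scalings that leave out mitochondrial genes.

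The differences with Nec-1 in EtOH organoids spanned a narrow range. mt-Co3 had the largest, with 7331 and 6781 FPKM against 5130 and 4336 FPKM (log2 fold change 0.58, 95% confidence interval 0.24 to 0.92, limma, adjusted p = 0.226). mt-Nd5 was at 2779 and 2820 FPKM with Nec-1, against the 1859 and 2147 FPKM given above (0.49, interval 0.21 to 0.76, adjusted p = 0.221). mt-Atp6 was at 1168 and 1110 FPKM with Nec-1 (log2 fold change 0.50). mt-Co1 was at 32028 and 30294 FPKM with Nec-1, the highest levels of any gene in these libraries (0.38, interval 0.00 to 0.75, adjusted p = 0.374).

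The other 6 genes were also higher in each Nec-1 library. mt-Nd1 was at 6587 and 6022 FPKM with Nec-1 (log2 fold change 0.37), mt-Nd2 at 2671 and 2417 (0.29) and mt-Nd4 at 2531 and 2488 (0.26). mt-Cytb was at 5619 and 5625 FPKM (0.40) and mt-Co2 at 11860 and 11011 FPKM (0.31). mt-Nd6, the light-strand gene, had the smallest difference, at 4130 and 4215 FPKM (0.21, interval -0.13 to 0.56). These intervals allow for no difference in mt-Nd6 and mt-Co2 and do not include 0 for the other 8, before any adjustment for the number of genes tested.

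With 4-OHT, only 1 library received Nec-1, so its values have no replicate check. All 10 genes were above both 4-OHT DMSO libraries in it, as were 25.5% of all genes tested, while 49.3% were below both. Here too, the 10 genes are not independent of each other. mt-Co1 was at 23696 FPKM, 1.57 times its 4-OHT DMSO mean, and mt-Nd4 (3195 FPKM) and mt-Nd5 (2215 FPKM) were at 1.55 and 1.53 times theirs. mt-Nd1 was at 10226 FPKM (1.45 times), mt-Cytb at 7247 FPKM (1.42 times) and mt-Nd2 at 3669 FPKM (1.39 times). mt-Co3 was at 7571 FPKM (1.31 times), mt-Atp6 at 1214 FPKM (1.32 times), mt-Nd6 at 3318 FPKM (1.28 times) and mt-Co2 at 12117 FPKM (1.24 times). This library held the highest level of the 7 libraries for each of the 10 genes but mt-Co1, mt-Nd5 and mt-Nd6, whose highest levels were in EtOH Nec-1. The count of 10 above both DMSO libraries held under every alternative scaling and pseudocount tried, but the size moved: the log2 differences ran from 0.30 to 0.65 as deposited and from 0.44 to 0.79 with upper quartile scaling.

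**Figure D5:**
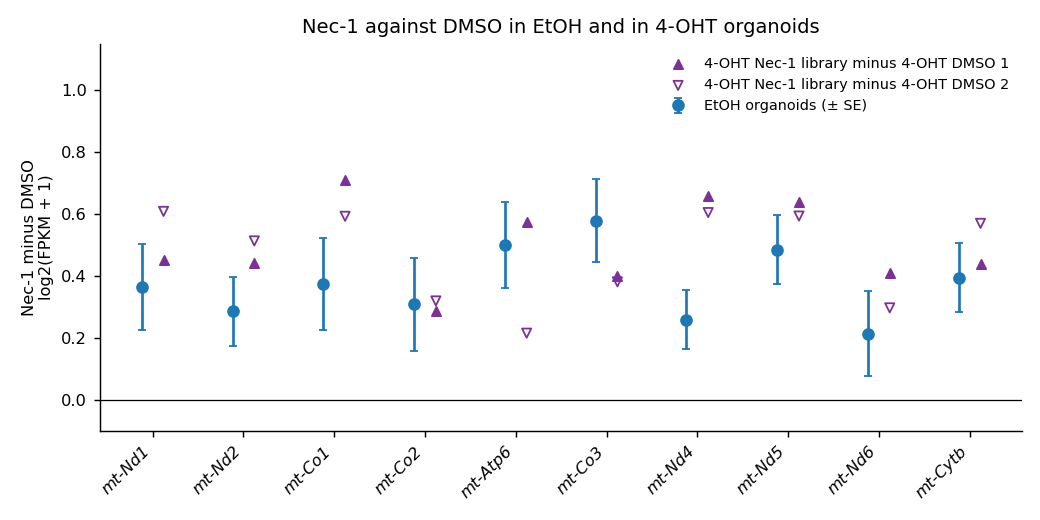
Difference between Nec-1 and DMSO (log2(FPKM + 1)) for the 10 genes, in EtOH organoids (circles, limma estimate ± SE, 2 libraries against 2) and in 4-OHT organoids (triangles, the 1 Nec-1 library minus each DMSO library). All values are above 0, from 0.21 to 0.58 in EtOH and from 0.22 to 0.71 for the single differences in 4-OHT.

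The size of the Nec-1 difference per gene did not run in parallel in EtOH and 4-OHT organoids: mt-Co3 was first of the 10 in EtOH (0.58) and at 0.39 in 4-OHT, whereas mt-Nd4 was at 0.26 in EtOH and 0.63 in 4-OHT. Over the 10 genes Pearson's r between these differences was 0.007. The 2 contrasts share no library, but the genes come from the same long transcripts and are not independent. Whether the Nec-1 difference of a gene differs between EtOH and 4-OHT was not tested.

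The 4-OHT differences were lowest for the same 3 genes with and without the inhibitor. Against both EtOH Nec-1 libraries, the 4-OHT Nec-1 library was above for 7 of the 10 genes and below for 3, and the 3 were again mt-Co1 (log2 difference -0.39), mt-Nd5 (-0.34) and mt-Nd6 (-0.33). Of all genes tested, 50.4% were above and 38.0% below. mt-Nd1 (0.70) and mt-Nd2 (0.53) were highest, followed by mt-Cytb (0.37) and mt-Nd4 (0.35), and mt-Co3 (0.10), mt-Atp6 (0.09) and mt-Co2 (0.08) were close to 0. Over the 10 genes, r between the 4-OHT differences with DMSO and with Nec-1 was 0.910, across genes that are not independent and between contrasts that share no library.

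The nuclear genes of the same complexes were counted beside the 10. For 4-OHT DMSO against EtOH DMSO, the counts stand beside 24.5% called higher and 16.7% lower over all genes tested. In 4-OHT DMSO, 5 of 36 complex I subunits were called higher and 12 lower, among them Ndufb11 (-0.76, limma, adjusted p = 0.00382) and Ndufv2 (-0.64) lower and Ndufa12 (0.75) and Ndufa5 (0.59) higher. Of 9 complex III subunits, 3 were called higher (Uqcr10 0.72) and 2 lower (Uqcrc2 -0.45). Of 11 complex IV subunits, 0 were called by limma and 0 had an unadjusted p under 0.05, beside the call for mt-Co1. Of all 12702 genes tested, 6480 had such a p. Of 16 genes of complex V and its inhibitor, 1 was called higher (Atp5k 0.50) and 7 lower, with Atpif1, which encodes the inhibitor, at -0.88 and Atp5c1 at -0.59. Complex II has no mitochondrially encoded subunit, and 3 of its 4 genes were called lower: Sdhb (-0.92), Sdha (-0.83) and Sdhc (-0.43). The median log2 fold changes were -0.18 (complex I), -0.63 (II), -0.19 (III), -0.02 (IV) and -0.19 (V), against 0.08 for all genes. With Nec-1 in EtOH organoids, 0 of 76 nuclear subunits of the 5 complexes were called by limma (2 with an unadjusted p under 0.05) and the medians lay between -0.05 and 0.07, where that of the 10 mitochondrial genes was 0.37. Over all genes tested, 0.22% were called, 13.3% had such a p and the median was -0.09.

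Genes that act on mitochondrial RNA and on the assembly of the complexes were counted too, again beside 24.5% called higher and 16.7% lower over all genes in 4-OHT DMSO. Of 19 genes for processing and stability of mitochondrial RNA, 9 were called higher in 4-OHT DMSO and 2 lower. Higher were Pnpt1 (1.04), a subunit of the RNA degradosome, Rexo2 (1.01), an oligoribonuclease, and Fastkd2 (0.66), an RNA-binding protein. Lower were Hsd17b10 (-0.58), a subunit of mitochondrial RNase P, and Grsf1 (-0.40), which binds RNA in mitochondrial granules. Trmt10c (0.63), another subunit of that RNase P, went the other way and was called higher, as was Elac2 (0.61). Of 16 genes for transcription and replication of the mitochondrial genome, Tefm (1.304), the elongation factor, and Mterf4 (0.90) were called higher, and Polg2 (-0.73), the accessory subunit of the DNA polymerase, and Mgme1 (-0.45), a nuclease, lower. Of 29 assembly factors of complexes I, III and IV, 10 were called higher, with Sco2 (2.36), a copper chaperone of complex IV, Ndufaf4 (1.88) and Ndufaf1 (1.37) first, and 3 lower, with Surf1 (-0.38) first. Of 9 regulators of mitochondrial biogenesis, Pprc1 (0.89) and Nfe2l2 (0.34) were called higher. Of 11 tested genes of the mitochondrial stress response, 3 were called higher (Gdf15 0.76, Hspd1 0.76, Clpp 0.37) and 3 lower (Ddit3 -0.53, Asns -0.51, Atf4 -0.43). With Nec-1 in EtOH organoids, 0 of the 84 genes tested in these lists were called by limma, and 10 had an unadjusted p under 0.05. Over all genes tested, 0.22% were called and 13.3% had such a p.

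Markers of the epithelial cell types moved with the same contrast, in which 24.5% of all genes tested were called higher and 16.7% lower. In 4-OHT DMSO, 6 of 6 Paneth markers were called higher, with a summed FPKM of 18394 to 18642 against 6684 to 7142 in EtOH DMSO and 13813 in 4-OHT Nec-1. All 6 goblet markers and all 6 enteroendocrine markers were called higher, and 3 of 5 stem cell markers lower, with a sum of 21.3 to 29.1 FPKM against 46.1 to 47.8 FPKM. Of 7 enterocyte markers tested, 2 were called higher and 3 lower, and the sum was 1031 to 1089 FPKM against 1267 to 1337 FPKM. With Nec-1 in EtOH organoids, the enterocyte sum was 1015 to 1018 FPKM and that of stem cell markers 32.6 to 34.8 FPKM, both below the EtOH DMSO libraries. Among the enterocyte markers, Anpep (log2 fold change 0.54) and Alpi (0.03) did not share this fall, and Sis (-0.08) differed little. The sums of the Paneth markers (7581 to 7787 FPKM), goblet markers (1473 to 1491 FPKM, against 1323 to 1413 FPKM) and enteroendocrine markers (290 to 311 FPKM, against 250.0 to 270.3 FPKM) were above those of EtOH DMSO, as the 10 genes were. Within these lists, Defa30 (-0.08) and Neurog3 (-0.34) went the other way. Of the enterocyte, stem cell, Paneth, goblet and enteroendocrine markers, only Apoa4 was called (lower, -1.62). In the 4-OHT Nec-1 library, the Paneth sum and the goblet sum (1893 FPKM, against 2091 to 2402 FPKM) were below 4-OHT DMSO, whereas the 10 genes were above it. The enterocyte sum was above 4-OHT DMSO (1226 FPKM), the stem cell sum below (14.0 FPKM), and the enteroendocrine sum (555 FPKM) within 511 to 578 FPKM. The 4 tuft markers summed to 3.27 to 4.65 FPKM, and Avil, the only one tested, was called higher in 4-OHT DMSO (0.52). Immune markers summed to 3.38 to 3.52 FPKM in EtOH DMSO and to 6.71 to 9.03 FPKM in 4-OHT DMSO, mostly from Cd68. With Nec-1 they summed to 5.43 to 6.17 FPKM in EtOH organoids and to 10.1 FPKM in the 4-OHT library. The part of these markers in the values of the 10 genes was not tested.

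Over the 7 libraries, the genes outside the mitochondrial genome whose log2(FPKM + 1) followed the summed FPKM of the 10 most closely were Cyp2c66, Pgrmc1, Cyp2c55, Cyb5a, Acot11, Insl6, Pof1b, Cd36, Ces2a and Ehhadh, with Pearson's r from 0.968 to 0.979. Cyp2c66 and Cyp2c55 are cytochrome P450 enzymes, Cd36 takes up fatty acids and Ehhadh acts in peroxisomal fatty acid oxidation. The lowest correlations were those of Ppp1r7, Cbx6, Fam192a, Ercc3, Gm47797, Timeless, Nsl1, Cotl1, Rbmx2 and Recql (r from -0.995 to -0.965). The 7 libraries fall into 4 groups and the 20 genes are the extremes of 12702, so these are descriptions of the pattern only.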

How the data were processed

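Gene-level values from 7 RNA-seq libraries were used, and 2 CUT&Tag samples were left out. Sequencing was on an Illumina HiSeq X instrument, and the values the authors deposited are FPKM for each gene (Ensembl identifiers) in each library. The submitters' processing notes name HISAT2 2.1.0, StringTie 1.3.3b and mm10; the annotation release and the strand setting are not given in the sources used here. In the deposited tables, 2 columns repeated libraries of other tables to within rounding, and no column was left unmapped (0). Of 54838 identifiers, 54723 had a symbol. FPKM is relative to each library, so a share or level can move because other genes move.

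Groups came from the labels. The members and gene lists were chosen with earlier results of these data known. limma 3.58.1 (R 4.3.3) with a mean-variance trend was fitted to log2(FPKM + 1) of 12702 genes (those reaching 1 FPKM in 2 or more libraries), with 1 mean per group over all 7 libraries (3 residual degrees of freedom), and p-values were adjusted by Benjamini-Hochberg over all genes tested (threshold 0.05). Fold changes are on the log2(FPKM + 1) scale; at the levels of the 10 genes the pseudocount of 1 hardly changes them. The 4-OHT Nec-1 library was compared without a test. Named genes were the 10 members, Mettl3, the other mitochondrial genes and up to 3 called genes per list and direction. The 10 genes correlated most and the 10 correlated least with the members' sum were named too. mt-Td, mt-Tn, mt-Tc, mt-Ty, mt-Ts2 and the nuclear copies were named for their place or their values, and Trmt10c and Elac2 beside Hsd17b10. Each member's log2 values enter as deposited. Positions are from the RefSeq table of GRCm38.p6.

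In data simulated for the 4-OHT DMSO against EtOH DMSO comparison (12702 genes, 200 changed, 20 draws), the fit found 60.0% of genes changed by 1 log2 unit and 87.2% of those changed by 2, and 5.29% of its calls were false. Other values and plots came from Python 3.11.15 (pandas 2.3.3, numpy 2.4.6, scipy 1.17.1, matplotlib 3.10.9). Alternatives were another trend, other scalings, pseudocounts of 0.1 and 0.25, other filters, fewer libraries and a replicate block.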

Additional observations from a re-analysis of the deposited data

Results flagged for a closer look

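One mitochondrial gene, mt-Tv, was flagged for Nec-1 differences of opposite sign in EtOH and in 4-OHT organoids. Smaller log2 differences of opposite sign occurred in other mitochondrial genes, for example mt-Rnr1 (0.18 in EtOH, -0.09 in 4-OHT) and mt-Tg (0.09 and -0.25). mt-Tv, a tRNA gene between the rRNA genes, was at 5.99 and 2.19 FPKM in EtOH DMSO, 6.35 and 6.15 FPKM in EtOH Nec-1, 5.18 and 7.91 FPKM in 4-OHT DMSO and 3.46 FPKM in 4-OHT Nec-1. The log2 difference was 0.62 in EtOH and -0.73 in 4-OHT, where only 1 library had received Nec-1. The difference between these was not tested. No group has 4 libraries, so no single library was checked as standing apart from its group.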

How the results depend on the processing

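For 4-OHT DMSO against EtOH DMSO, the 4 called genes (1 higher, 3 lower) became 0 without the filter on low values (28195 genes tested), 0 with only the 4 libraries compared, and 0 to 4 when 1 library was left out (0 without EtOH Nec-1 replicate 1 or 2). The same replicate numbers do not pair the libraries: deviations from the group means correlated at -0.04 to 0.01, and with the replicate number as a block 2 of the 10 genes were called, mt-Nd1 higher and mt-Nd5 lower, and mt-Co1 (adjusted p = 0.0548, limma) and mt-Nd6 (0.0804) were not. Signs turned for mt-Co2 (0.09; -0.068 with median centring, -0.077 with upper quartile scaling, -0.0079 without mitochondrial genes in the scaling; -0.059 without EtOH DMSO replicate 2 to 0.24 without replicate 1) and mt-Nd4 (-0.02; -0.051 to 0.0019 leaving out 1 library, the latter without 4-OHT DMSO replicate 1); the cause was not tested. Of 181 refitted fold changes, 149 kept direction and side of the threshold, 25 lost and 2 gained the call, and 5 turned. For EtOH Nec-1 against EtOH DMSO, all 181 kept both, with 0 calls, and 0 of the 10 genes were called under the block. Of 80 recomputed differences between the 4-OHT Nec-1 library and the 4-OHT DMSO mean, 28 moved by more than the spread of the DMSO libraries and 0 changed sign (0.22 to 0.79). The share of the 10 genes differed by -1.68 percentage points for 4-OHT DMSO minus EtOH DMSO (-1.002 with all 13 protein genes; -2.05 to -1.31 leaving out 1 library), by 2.66 for EtOH Nec-1 minus EtOH DMSO (3.18 with 13 genes, 4.00 with 7 nuclear copies added; 2.29 to 3.03) and by 4.16 for 4-OHT Nec-1 minus 4-OHT DMSO (4.68 and 5.72; 4.25 without tRNA and rRNA genes in the sum, 4.30 without AY036118 and Gm23935; 4.13 to 4.20). The scalings without nuclear copies and without AY036118 and Gm23935 were chosen after seeing the data. Without read counts, the counting error of a value is unknown.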
